A study of Rattus norvegicus with 12 samples.

Results

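The adrenergic receptors are the G protein-coupled receptors for noradrenaline and adrenaline. A list of 7 of their genes was followed here in the rat inferior colliculus (IC), the auditory midbrain centre. A probe listed with exactly 1 gene symbol was found for 6 of the 7 (Adra1a, Adra1b, Adra1d, Adra2b, Adra2c and Adrb1), among 18166 genes in all. Adra2a, the α2A receptor gene, had no such probe and was not analysed here. Each of the 6 genes was read by 1 probe, so no choice among probes was needed.

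In the brain noradrenaline is released mainly by neurons of the locus coeruleus in the pons, whose axons reach the IC along with most other regions. Receptors of the α1 class couple to Gq and phospholipase C and generally raise excitability. The α2 class couples to Gi and Go, lowers cAMP and, on noradrenergic terminals, restrains further release. The β class couples to Gs and raises cAMP. Receptor mRNA in IC tissue comes from neurons, glia and vessels together, and in such bulk tissue fewer cells of a type cannot be told apart from less RNA per cell.

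The study deafened rats of the SD strain on 1 side and asked how the IC differs from that of hearing rats. The deaf arm (20 rats) had the right cochlea surgically ablated. The control arm (20 rats) had a sham operation, an incision behind the ear with no opening of the bulla, and tissue was taken 2 weeks after surgery. The 12 arrays formed 4 groups of 3, namely left IC of deaf rats, left IC of control rats, right IC of deaf rats and right IC of control rats. The left IC lies opposite the ablated ear and normally takes most of its input from it, whereas the right IC lies on the ablated side. The labels give neither age nor sex. Whether single rats or pools were hybridised, and whether both sides of a rat were, is not stated, so the p-values rest on array-to-array spread that could be technical in part.

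All levels are given as log2 intensity. A difference is that of the group means on this scale, with its standard error (SE) from a limma model of all 18166 genes. P-values adjusted by the Benjamini-Hochberg method over all genes are called adjusted, with a threshold of 0.05. The array medians were 5.34, and arrays correlated at 0.982 to 0.993 over all probes. The series title and sample descriptions name hippocampus, whereas titles, source names and tissue entries name IC. All 10 listed tectal markers were measured. Of these, 7 had a mean above the median gene level of 5.97, from En2 at 5.99 to Slc17a6 at 9.75. Slc17a6 is also in the list of neuron markers used here. Tfap2d stood at 9.60, whereas Pax7 (5.37), Tfap2b (5.32) and Pou4f1 (5.22) lay below the median. Of the 8 measured hippocampal and forebrain markers 3 lay above that median, Wfs1 (7.02), Lhx2 (6.87) and Prox1 (6.17). Neurod6 (3.40) and Tbr1 (4.42) lay below the lower quartile of 4.48. The receptors were at low to middling levels. The means of Adra1a, Adra1b, Adra1d and Adra2b lay between the lower quartile and the median of all genes, and those of Adra2c and Adrb1 lay just above the median.

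No receptor passed the adjusted threshold in any of the 6 comparisons made. In the left IC, deaf minus control, limma called 0 of 6 receptors, against 0% of all genes; at an unadjusted p under 0.05 it was 0 of 6, against 3.69%. In the right IC it called 0 of 6, against 0%, and 1 of 6 had an unadjusted p under 0.05, against 4.31% of all genes. For the mean of both sides these counts were 0 of 6, against 0%, and 1 of 6, against 4.53%. The receptor in both of the last counts was Adra2c. The following values therefore describe measured differences that did not pass over all genes.

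**Figure D1:**
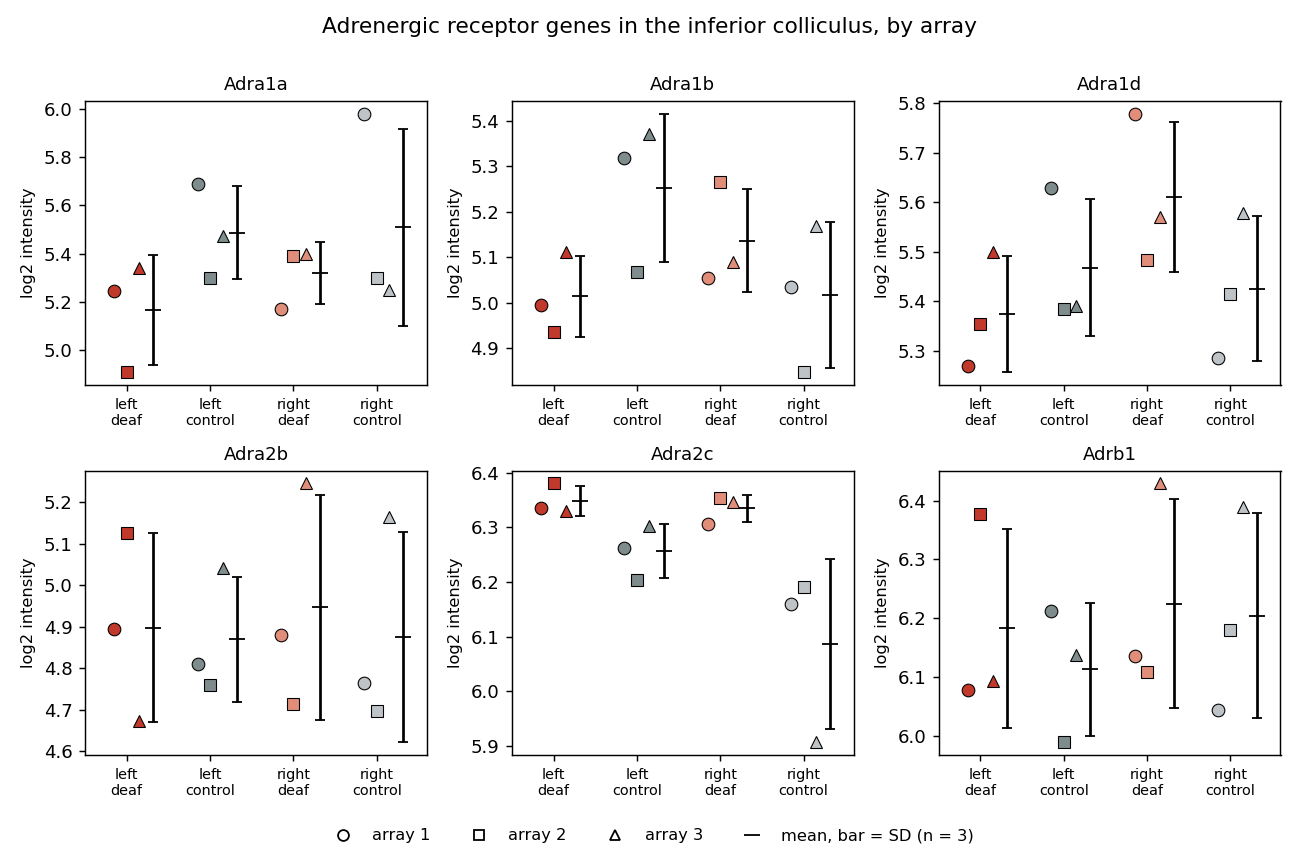
Log2 intensity (vertical axis, scaled separately per gene) of the 6 adrenergic receptor genes on each of the 12 arrays, by group; symbols give the array number and bars the mean ± SD (n = 3). Adra2c is the gene whose 6 deaf arrays (6.31 to 6.38) all lie above its 6 control arrays (5.91 to 6.30), whereas the other genes overlap.

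Adra2c, which encodes the α2C receptor, a Gi-coupled receptor found on noradrenergic terminals and on other neurons, was higher on every deaf array than on any control array. In the left IC it had 6.34, 6.38 and 6.33 on deaf arrays 1 to 3, against 6.26, 6.20 and 6.30 on control arrays. In the right IC it had 6.31, 6.35 and 6.35 on deaf arrays, against 6.16, 6.19 and 5.91 on control arrays. The deaf arrays were thus close together on both sides, and right control 3 was the lowest of all 12 arrays. The separation was narrow at its closest, between right deaf 1 (6.31) and left control 3 (6.30).

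The difference of Adra2c was 0.092 in the left IC (SE 0.085, 95% interval -0.094 to 0.28) and 0.25 in the right IC (SE 0.085, 0.063 to 0.44). The mean over both sides was 0.17 (SE 0.060, 0.039 to 0.30), a 1.13-fold higher level in deaf arrays. Unadjusted limma p-values were 0.302, 0.0130 and 0.0154, and adjusted values were 1.00 on each side and 0.998 for the mean. An exact permutation test of the mean, two-sided, with deaf and control arrays exchanged within each side, gave p = 0.005, the smallest that the 400 arrangements allow. That smallest value was reached by 0.611% of all genes, and adjusted over all genes by the Benjamini-Hochberg method it was 0.818. The 400 arrangements exchange left and right arrays separately. If both sides of the same rats were hybridised, fewer arrangements would be valid and the smallest p would be larger. Complete separation of the 6 deaf from the 6 control arrays, in either direction, was seen for 0.270% of genes and for 1 of the 6 receptors. Within 1 side, Adra2c was also the receptor whose groups did not overlap, 1 of 6 on the left (10.3% of all genes) and 1 of 6 on the right (7.48%); the exact permutation test cannot give less than 0.1 there.

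A single array weighed on the size of the right-side difference of Adra2c. Without right control 3 it was 0.16, and the mean over both sides was 0.13. With right controls 1 and 3 both left out they were 0.14 and 0.12, and the unadjusted limma p-value of the mean over both sides was 0.0771. Marker scores of other cell types (the mean of gene-centred log2 values) also differed between arrays. The score of 9 cerebellar markers averaged -0.13 in left deaf, against -0.11 in left control, and -0.17 in right deaf, against 0.42 in right control. On the left 7 of 9 of these markers had lower means in deaf arrays, 0 of them at an unadjusted limma p under 0.05, and on the right 8 of 9, with 5 at that level and 0 past the adjusted threshold. The higher cerebellar scores were thus those of the right control arrays. On right control 3, where Adra2c was lowest, the scores of cerebellar (0.82), astrocyte (0.11) and hippocampal and forebrain markers (0.28) were the highest of the 12 arrays, and the score of 8 neuron markers (-0.17) was the lowest. The score of 7 oligodendrocyte markers ran from -0.13 to -0.049 in left deaf, against 0.0045 to 0.038 in left control, and from -0.11 to -0.0028 in right deaf, against 0.031 to 0.18 in right control. These groups did not overlap on either side. Over both sides, every deaf array (up to -0.0028) also lay below every control array (0.0045 or more), a full separation as for Adra2c but in the other direction. Of the 7 oligodendrocyte markers 6 had lower means in deaf arrays on the left and 7 on the right, 2 of them at an unadjusted limma p under 0.05 on each side and 0 past the adjusted threshold. Beside the cerebellar and oligodendrocyte counts, 3.69% of all genes on the left and 4.31% on the right reached that unadjusted level. Higher means in deaf arrays were seen for 48.2% and 50.5% of all genes. The part of these cell types in the difference of Adra2c was not tested.

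The groups ranked, for Adra2c, from left deaf (6.35 ± 0.028, SD, n = 3) and right deaf (6.34 ± 0.025) to left control (6.26 ± 0.049) and right control (6.09 ± 0.16). The spread among right controls exceeded that of the other groups. No pair of neighbours in this order passed the limma threshold (adjusted p of 0.934 or more), although the arrays of right deaf and left control, and those of left control and right control, did not overlap. In control rats the left IC was 0.17 higher than the right (SE 0.085), and 0.081 higher without right control 3. In deaf rats the sides differed by 0.013 (SE 0.085, 95% interval -0.17 to 0.20). The side by deafness interaction was -0.16 (SE 0.12, limma unadjusted p = 0.218), and -0.068 without right control 3, so a difference between the sides in the response was not shown.

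**Figure D2:**
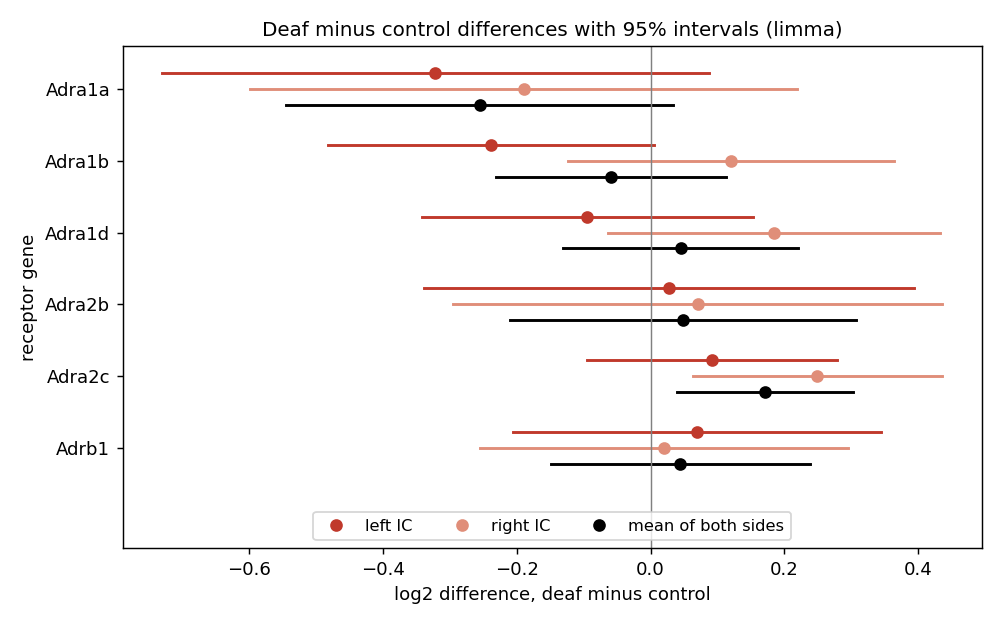
Deaf minus control log2 difference (horizontal axis) of each receptor gene (rows) in the left IC, the right IC and as the mean of both sides; points are differences of means and lines 95% intervals from limma. The intervals of Adra2c lie above 0 on the right (0.063 to 0.44) and for the mean (0.039 to 0.30), and all other intervals include 0.

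Adra1a encodes the α1A receptor, which couples to Gq. It had the largest measured left-side difference of the 6 receptors, with lower values in deaf rats. In the left IC it had 5.25, 4.91 and 5.34 on deaf arrays, against 5.69, 5.30 and 5.47 on control arrays. In the right IC it had 5.17, 5.39 and 5.40 on deaf arrays, against 5.98, 5.30 and 5.25 on control arrays. The groups overlapped on both sides, and the 2 highest values of all were right control 1 and left control 1.

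The difference of Adra1a was -0.32 on the left (SE 0.19) and -0.19 on the right (SE 0.19), with unadjusted limma p-values of 0.112 and 0.332. The mean of both sides was -0.26 (SE 0.13, 95% interval -0.54 to 0.034), and the two-sided exact permutation test of that mean gave p = 0.13. With 1 array left out, this permutation p ran from 0.05 (without right control 3) to 0.265 (without right control 1), and the mean of both sides was -0.14 without right control 1. Without left deaf 2 the left difference was -0.19. Without right control 1 the right difference turned to 0.046, and without right control 3 it was -0.32. With left control 1 and right control 1 both left out, an alternative chosen after seeing the data, the mean of both sides was -0.088 (SE 0.098). In order from the lowest, left deaf (5.17 ± 0.23, SD, n = 3) and right deaf (5.32 ± 0.13) lay below left control (5.49 ± 0.19) and right control (5.51 ± 0.41), and no neighbours passed the limma threshold (adjusted p of 0.995 or more).

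The marker score of noradrenergic neurons was highest on the same pair of control arrays as Adra1a. Dbh, which encodes dopamine β-hydroxylase, the enzyme that makes noradrenaline from dopamine, had 4.26, 4.51 and 4.95 on left deaf arrays, against 5.61, 5.20 and 4.58 on left control arrays. On the right it had 4.51, 4.72 and 5.00 on deaf arrays, against 5.96, 4.95 and 4.61 on control arrays. Its mean difference over both sides was -0.50 (SE 0.24, limma unadjusted p = 0.0572, adjusted p = 0.998), and both sides overlapped.

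Of 5 listed markers of noradrenergic neurons 4 were measured (Dbh, Th, Slc6a2 and Phox2a). All 4 had lower means in deaf arrays on both sides. Over all genes, 48.2% on the left and 50.5% on the right had higher means. Some of the 4 differed very little, with Phox2a at -0.0065 on the left (SE 0.086) and Th at -0.0044 on the right (SE 0.28). None passed the limma threshold, and none had an unadjusted p under 0.05. Their score ran from -0.33 to 0.016 on deaf arrays and from -0.23 to 0.51 on control arrays, and was 0.43 on left control 1 and 0.51 on right control 1. Dbh, Slc6a2 and Phox2a had mean levels of 4.90, 4.88 and 4.84, below the median of all genes but above the lower quartile. These neurons lie mainly in the pons, and detection calls were not used. Whether the levels exceed background was not tested. Right control 1 also had the highest scores of mural and endothelial (0.18), oligodendrocyte (0.18) and microglia markers (0.15). Its tectal marker score (-0.14) was the lowest of the 12 arrays. Left control 1 was not the extreme array of any of these other scores. The part of noradrenergic or other cells in the values of Adra1a was not tested.

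**Figure D3:**
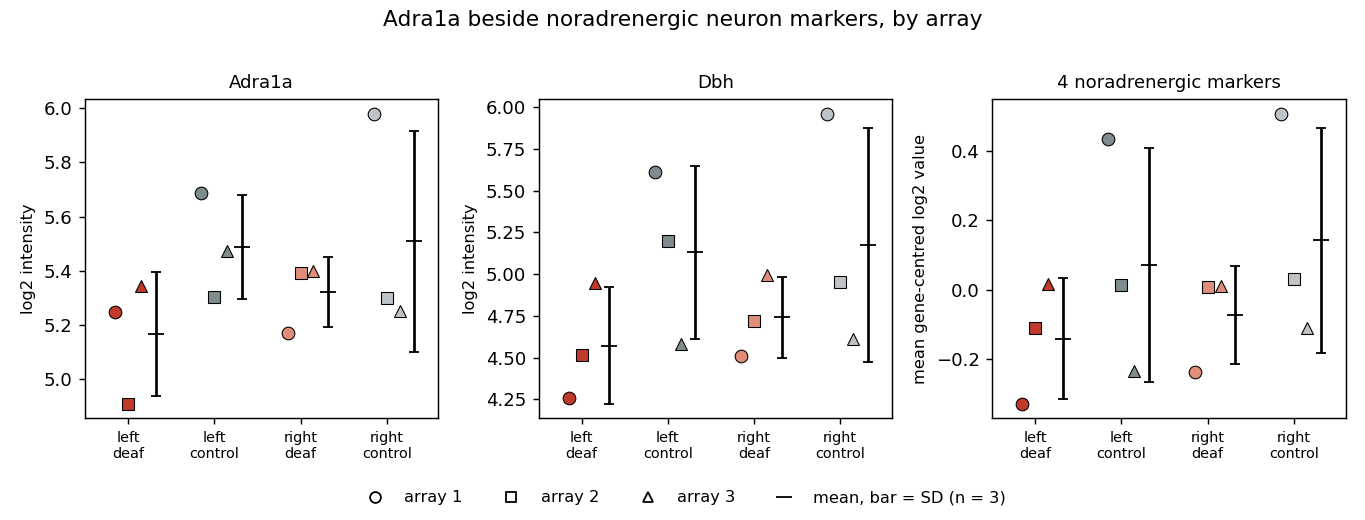
Log2 intensity of Adra1a and Dbh and the score of 4 noradrenergic neuron markers (mean gene-centred log2 value) on each array, by group; symbols give the array number and bars the mean ± SD (n = 3). Left control 1 and right control 1 are the highest arrays in all 3 panels, at 5.69 and 5.98 for Adra1a and 5.61 and 5.96 for Dbh.

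Adra1b, which encodes the α1B receptor, also Gq-coupled, had a lower mean in the left deaf IC and a higher mean in the right deaf IC than in controls. On the left it had 5.00, 4.93 and 5.11 on deaf arrays, against 5.32, 5.07 and 5.37 on control arrays. On the right it had 5.05, 5.27 and 5.09 on deaf arrays, against 5.03, 4.85 and 5.17 on control arrays. The groups overlapped on both sides, although each deaf array lay below the control mean on the left (5.25) and above it on the right (5.02).

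That arrangement held for 1 of the 6 receptors, against 3.03% of all genes. It describes the values of Adra1b itself and was counted in this direction only. The reverse arrangement was not counted, so the share carries no test. The left difference of Adra1b was -0.24 (SE 0.11) and the right difference 0.12 (SE 0.11), with unadjusted limma p-values of 0.0537 and 0.303. The interaction was -0.36 (SE 0.16, 95% interval -0.70 to -0.015, unadjusted p = 0.0423), with an adjusted p of 1.00; in that comparison 0 of 6 receptors passed, against 0% of all genes, and 1 of 6 had an unadjusted p under 0.05, against 3.42%. With each array left out in turn the interaction ran from -0.45 (without left control 2) to -0.27 (without right control 2). The right difference was less stable, at 0.035 without right control 2 and 0.20 without right control 3.

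Averaged over the sides, Adra1b differed by -0.059 (SE 0.079), and the exact permutation test gave p = 0.545. With 1 array left out the difference ran from -0.11 (without left control 2) to -0.021 (without right control 3), and the permutation p from 0.235 to 0.815. From the lowest, its groups ranked from left deaf (5.01 ± 0.090, SD, n = 3) and right control (5.02 ± 0.16) through right deaf (5.14 ± 0.11) to left control (5.25 ± 0.16), with no neighbours past the limma threshold. In control rats the left IC was 0.24 higher than the right (SE 0.11, limma unadjusted p = 0.0563, adjusted p = 0.934), and 0.15 higher without right control 2. It was 0.41 higher with right controls 1 and 3 both left out. In deaf rats the left was lower, at -0.12 (SE 0.11), and at -0.059 without right deaf 2.

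Adra1d, which encodes the α1D receptor, the third Gq-coupled member, had its highest mean in the right IC of deaf rats. On the left it had 5.27, 5.35 and 5.50 on deaf arrays, against 5.63, 5.39 and 5.39 on control arrays. On the right it had 5.78, 5.48 and 5.57 on deaf arrays, against 5.28, 5.41 and 5.58 on control arrays. The arrays overlapped on both sides.

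Adra1d differed by -0.094 on the left (SE 0.11) and by 0.18 on the right (SE 0.11, limma unadjusted p = 0.130), and by 0.10 on the right without right deaf 1. Its left difference was -0.014 without left control 1 and -0.16 without left deaf 3. The interaction was -0.28 (SE 0.16, unadjusted p = 0.109). The order was right deaf (5.61 ± 0.15, SD, n = 3), left control (5.47 ± 0.14), right control (5.43 ± 0.15) and left deaf (5.37 ± 0.12), and its neighbours did not pass the limma threshold. In deaf rats the left IC was lower than the right by 0.24 as measured, a left minus right difference of -0.24 (SE 0.11, limma unadjusted p = 0.0597, adjusted p = 1.00), and -0.15 without right deaf 1. In control rats that difference was 0.042 (SE 0.11).

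Adra2b and Adrb1 showed no separation of deaf from control arrays. Adra2b encodes the α2B receptor, which is Gi-coupled. On the left it had 4.89, 5.13 and 4.67 on deaf arrays, against 4.81, 4.76 and 5.04 on control arrays. On the right it had 4.88, 4.72 and 5.24 on deaf arrays, against 4.77, 4.70 and 5.16 on control arrays. The ranges overlapped on both sides.

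The differences of Adra2b were 0.028 on the left (SE 0.17, 95% interval -0.34 to 0.39) and 0.071 on the right (SE 0.17, -0.29 to 0.44). They were -0.086 on the left without left deaf 2 and -0.078 on the right without right deaf 3. Group means ran from 4.95 ± 0.27 in right deaf and 4.90 ± 0.23 in left deaf to 4.88 ± 0.25 in right control and 4.87 ± 0.15 in left control (SD, n = 3 each), an order that the spread does not resolve. Its left minus right difference was -0.049 in deaf rats and -0.0057 in control rats (SE 0.17 each).

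Adrb1 encodes the β1 receptor, the Gs-coupled member that raises cAMP. On the left it had 6.08, 6.38 and 6.09 on deaf arrays, against 6.21, 5.99 and 6.14 on control arrays. On the right it had 6.14, 6.11 and 6.43 on deaf arrays, against 6.04, 6.18 and 6.39 on control arrays. The groups overlapped on both sides.

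The differences of Adrb1 were 0.070 on the left (SE 0.13, 95% interval -0.20 to 0.34) and 0.020 on the right (SE 0.13, -0.25 to 0.29). They were -0.028 on the left without left deaf 2 and -0.082 on the right without right deaf 3. Group means were 6.22 ± 0.18 in right deaf, 6.20 ± 0.17 in right control, 6.18 ± 0.17 in left deaf and 6.11 ± 0.11 in left control (SD, n = 3 each), and neighbours did not pass the limma threshold. Its left minus right difference was -0.042 in deaf rats and -0.091 in control rats (SE 0.13 each). The same 3 arrays, right deaf 3, right control 3 and left deaf 2, held the 3 highest values of both Adra2b and Adrb1. These arrays come from both arms and both sides.

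Set by class, the 3 α1 genes had lower means in the left deaf IC, and the 2 measured α2 genes and Adrb1 had higher means there. That made 3 of 6 receptors higher on the left, against 48.2% of all genes. In the right deaf IC 5 of the 6 had higher means, against 50.5% of all genes, with Adra1a the exception, and over both sides 4 of 6 did, against 49.4%. The median receptor difference was -0.033 on the left and 0.095 on the right, beside medians of -0.0051 and 0.0014 over all genes. Between the sides, limma called 0 of 6 receptors in control rats (0% of all genes) and 0 of 6 in deaf rats (0%), and none had an unadjusted p under 0.05, against 4.95% and 3.34% of all genes. Arrays of the 2 sides did not overlap for 1 of 6 receptors in control rats, Adra2c, against 9.80% of genes, and for 0 of 6 in deaf rats, against 8.31%.

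The other genes of noradrenergic signalling were taken from 4 lists with 69 of 80 members measured, of which 0 passed the limma threshold in any comparison. At an unadjusted p under 0.05, 3 were higher and 2 lower in the left deaf IC (7.25% of the 69), 0 in either direction in the right deaf IC, and 2 higher and 2 lower for the mean of both sides (5.80%). Over all genes these shares were 3.69%, 4.31% and 4.53%. These shares rest on few genes and the lists were not tested, so they are not read as a difference between the sides.

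**Figure D4:**
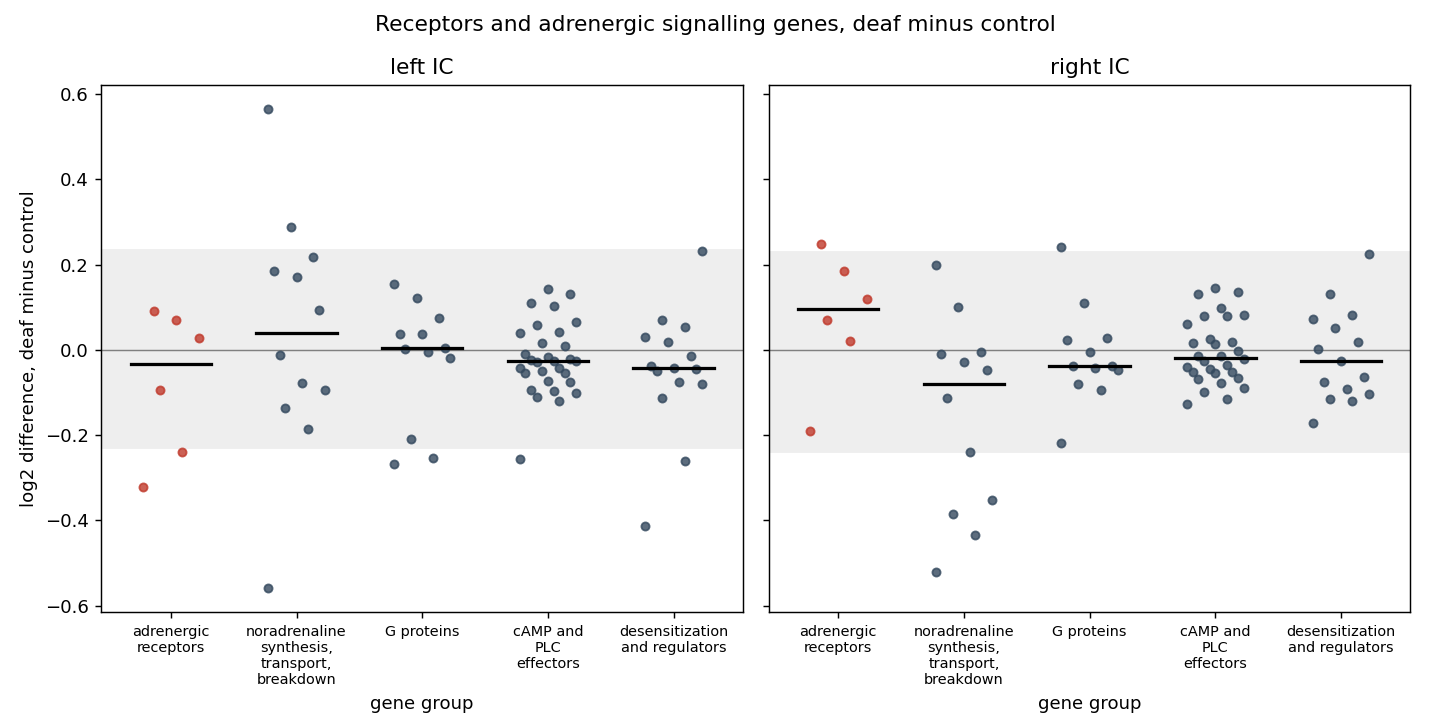
Deaf minus control log2 difference (vertical axis) of the 6 receptors (red) and of the genes of 4 noradrenergic signalling lists (blue), in the left and the right IC; black bars are medians and the grey band holds the middle of all 18166 genes, from the 5th to the 95th percentile (-0.23 to 0.23 on the left, -0.24 to 0.23 on the right). Most points lie within the band, and Rgs4, at -0.41 on the left, is the lowest of its list.

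Noradrenaline synthesis, transport and breakdown had 12 of 13 members measured, 6 higher and 6 lower in the left deaf IC (median 0.040) and 2 higher and 10 lower in the right (median -0.079). Sult1a1, a sulfotransferase that inactivates phenolic amines, had a left difference of 0.56 (SE 0.24) and Akr1b1, an aldose reductase that acts in noradrenaline breakdown, of 0.22 (SE 0.097). On the right the noradrenaline transporter gene Slc6a2 differed by -0.38 (SE 0.24), Ddc, the gene for aromatic amino acid decarboxylase, by -0.35 (SE 0.22) and the monoamine transporter gene Slc29a4 by -0.24 (SE 0.14). Unadjusted limma p-values were 0.0347 for Sult1a1, 0.0446 for Akr1b1 and above 0.05 for the other genes. The score of 10 meningeal and fibroblast markers averaged 0.20 in left deaf, against -0.21 in left control, with overlapping arrays. All 10 had higher left means, against 48.2% of all genes, 0 of them at an unadjusted limma p under 0.05. On the right 4 of 10 were higher. Sult1a1 and this score were both highest on left deaf 2 (6.90 and 0.76). On right deaf 2 and right control 1, Sult1a1 had 6.75 and 6.45 and the score was 0.56 and 0.60. On left control 2, left control 3 and right control 3, Sult1a1 had 5.80, 5.81 and 5.84 and the score was -0.29, -0.49 and -0.35. The lowest array was left control 2 for Sult1a1 and right deaf 3 for the score (5.98 and -0.73 there). The part of these cells in Sult1a1 was not tested.

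Of the G protein genes 12 of 18 were measured, 7 higher and 5 lower on the left (median 0.0035) and 4 higher and 8 lower on the right (median -0.038). Gnaz, which encodes a Gi-class α subunit, had 8.05, 8.18 and 8.36 on left deaf arrays, against 8.52, 8.47 and 8.36 on left control arrays. Its left difference was -0.25 (SE 0.090, limma unadjusted p = 0.0154, adjusted p = 1.00). On the right Gng7, a γ subunit gene, differed by 0.24 (SE 0.12). The cAMP and phospholipase C effectors had 30 of 33 members measured, 10 higher and 20 lower on the left (median -0.027) and 12 higher and 18 lower on the right (median -0.018). Their smallest unadjusted p on the left was 0.0697, for the phosphodiesterase gene Pde4d (-0.26, SE 0.13), and on the right 0.179, for the adenylyl cyclase gene Adcy2 (-0.099, SE 0.069).

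Genes for receptor desensitization and regulation had 15 of 16 members measured, 5 higher and 10 lower on the left (median -0.042) and 7 higher and 8 lower on the right (median -0.026). Rgs4, which encodes a GTPase-activating protein that shortens Gq and Gi signals, had 7.39, 7.41 and 7.48 on left deaf arrays, against 7.79, 7.96 and 7.77 on left control arrays. All left deaf arrays lay below all left controls, and left arrays did not overlap, in either direction, for 10.3% of all genes. The left difference was -0.41 (SE 0.099, limma unadjusted p = 0.00130, adjusted p = 0.986). Akap5, which encodes a scaffold that ties protein kinase A to β receptors, had 6.52, 6.55 and 6.42 on left deaf arrays, against 6.30, 6.23 and 6.26 on left control arrays, a difference of 0.23 (SE 0.087, unadjusted p = 0.0204, adjusted p = 1.00). On the right Arrb1, the gene for β-arrestin 1, differed by 0.13 (SE 0.072) and Rgs16, another GTPase-activating protein gene, by -0.17 (SE 0.084).

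For each receptor, the 2 genes with the most similar values over the 12 arrays were sought among 9007 named genes above the median level. Since they were picked for the highest Pearson correlation r, r describes the choice and carries no test. For Adra2c they were Nprl2 (r = 0.955, Spearman rho 0.937) and Mtor (r = 0.927, rho 0.552). Nprl2 averaged 7.11 in left deaf, against 6.96 in left control, and 7.16 in right deaf, against 6.77 in right control. Without the 2 arrays farthest from the median of Adra2c, right controls 3 and 1, r was 0.881 for Nprl2 and 0.655 for Mtor.

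For Adra1a the most similar genes were Gmppa (r = 0.887, rho 0.797) and Grk5, a receptor kinase gene (r = 0.876, rho 0.706), and r was 0.673 and 0.635 without right control 1 and left deaf 2. For Adra1b they were Plekhm2 (r = 0.910) and Rnf122 (r = 0.869), and for Adra1d Mfrp (r = 0.857) and Pole4 (r = 0.836). For Adra2b they were Kncn and Stk38 (r = 0.881 each), and for Adrb1 Rassf5 and Cdk5rap2 (r = 0.922 each). The arrays of a correlation share the hybridisation and normalization, and each r is the highest or second highest of 9007 candidates.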

How the data were processed

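Per the labels' protocols, total RNA was isolated with Trizol, and fragments of single-stranded cDNA carrying biotin were read on 1-colour Affymetrix arrays. The values deposited by the authors are on a log2 scale (from their range, not from a header) and had already been brought to nearly the same distribution on every array. The software behind this step, its version and the genome build were not given in the sources used here. Detection calls were not used here, and precision is limited by the number of arrays.

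Of 29489 probes 18511 had 1 gene symbol, and the brightest probe per gene by its mean over 12 arrays was kept (18166 genes). The 6 receptor symbols matched the reference by Entrez identifier. No filter on dim genes was applied. limma 3.58.1 in R 4.3.3 was fitted to all genes with 4 group means and 6 contrasts, two-sided (8 residual and 3.79 prior degrees of freedom), and was tested on simulated data. Exact permutation tests of single receptors exchanged arms within a side. For both sides together they treated left and right arrays as independent. Gene lists are described by counts and medians, without a list test. Genes named are all receptors, up to 3 genes per list and deaf minus control contrast with the smallest unadjusted p (not all are printed), the 2 most similar genes per receptor and any gene past the threshold. The members and lists were chosen with earlier results of these data known. Alternatives were quantile normalization, median centring, a filter on low levels, the use of every probe, averaging over probes, a robust fit with a variance trend, array weights, fits restricted to the compared groups, a replicate block and the omission of arrays.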

Additional observations from a re-analysis of the deposited data

How the results depend on the processing

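Of the 36 receptor differences (6 receptors, 6 comparisons), 19 kept their direction under every alternative that gave them a value and 17 turned in at least 1; none passed the adjusted threshold of limma in any of them (smallest adjusted p = 0.492). All differences of Adra2c but the left minus right one in deaf rats kept their direction. Its exact permutation p for both sides, with left and right arrays exchanged separately, was 0.005 to 0.01 in the 16 alternatives with a value. Its difference over both sides had a value in 22 alternatives and ran from 0.12 to 0.20. Since every deaf array lay above every control array, leaving out arrays keeps the measured arrangement among the most extreme. The permutation p therefore stays near its smallest value and cannot show how stable the size of the difference is. With 1 array left out in turn, Adra2b ran from -0.086 to 0.14 (left deaf minus control), -0.078 to 0.22 (right), -0.025 to 0.12 (both sides), -0.16 to 0.10 (deaf, left minus right), -0.095 to 0.14 (control, left minus right) and -0.19 to 0.11 (interaction). Adrb1 ran, in the same order, from -0.028 to 0.12, -0.082 to 0.11, -0.0064 to 0.091, -0.14 to 0.061, -0.17 to 0.0013 and -0.048 to 0.15. Adra1a ran from -0.32 to 0.046 on the right and from -0.15 to 0.21 between the sides of control rats, where Adra1d ran from -0.038 to 0.12; Adra2c ran from -0.0030 to 0.023 between the sides of deaf rats. The exact permutation p for both sides then ran from 0.38 to 0.975 for Adra2b and from 0.35 to 0.965 for Adrb1.

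Between the sides of control rats, quantile normalization gave 0.0037 for Adra2b, array weights 0.080 for Adra1a and 0.084 for Adra2b, and the omission of right controls 1 and 3 gave 0.19 for Adra1a and 0.17 for Adra2b. That omission also gave 0.022 for Adra1a on the right and 0.026 for Adra1b over both sides. The omission of both control arrays numbered 1, chosen after the data were seen, gave -0.0025 for Adra2b on the left, 0.046 for Adra1a and -0.061 for Adrb1 on the right, and 0.11 for Adra1a and -0.11 for Adra1d between the sides of control rats. The cause of these turns was not tested. Adra1a, Adra1b, Adra1d and Adra2b gave no value in the filter on low levels.

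The number of genes called, 0 in each comparison, became 1 (Vgf, not a receptor) on the left with the filter, with the variance trend or without left deaf 3, so it was 0 to 1 with 1 array left out. It became 1 (Vgf) between the sides of deaf rats with the filter and 2 (Vgf and Or52a5b) with the variance trend. It was 1 (Clec2d2) over both sides without right control 3, hence 0 to 1, and 1 (Slc17a7) on the right without both control arrays numbered 1. The replicate block gave 1 call (RGD1565183) between the sides of control rats and 1 in the interaction, and no receptor call. Samples of 1 number correlated at -0.130 to 0.159 in their deviations from group means, and 8 of 24 matches were best with their own number. Each sample had 3 possible partners, 1 of them of its own number, so 8 of 24 is the share that random matching would give. Between the sides of 1 arm, where a shared rat is possible, this held for 4 of 6 in control and 2 of 6 in deaf rats. So few matches cannot settle whether both sides came from the same rats. The labels do not pair the numbers, so the main fit used no pairing.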

Other observations

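The regulators Rgs2 and Rgs4, GTPase-activating protein genes that act on the G proteins of α1 and α2 receptors, had lower means in the left deaf IC and higher means in the right deaf IC than in controls. For Rgs4 the higher right mean depended on 1 array, as given below. Rgs2 averaged 7.30 ± 0.24 in left deaf, against 7.56 ± 0.13 in left control, and 7.54 ± 0.056 in right deaf, against 7.31 ± 0.17 in right control (SD, n = 3 each). Its interaction of side and deafness was -0.49 (SE 0.18, limma unadjusted p = 0.0201, adjusted p = 1.00), and all right deaf arrays lay above all right controls. That separation was very narrow, between right deaf 1 (7.486) and right control 2 (7.483). Right-side arrays did not overlap, in either direction, for 7.48% of all genes. Rgs4 averaged 7.43 ± 0.049 in left deaf, against 7.84 ± 0.11 in left control, and 7.78 ± 0.019 in right deaf, against 7.71 ± 0.19 in right control, with an interaction of -0.48 (SE 0.14, limma unadjusted p = 0.00466, adjusted p = 1.00). On the right, Rgs4 had 7.80, 7.76 and 7.79 on deaf arrays, against 7.85, 7.78 and 7.50 on control arrays, with right control 3 below the other arrays. The right difference of Rgs4 was 0.072 (SE 0.099). Without right control 3 the control mean would be the higher one, so opposite directions on the 2 sides were not shown for Rgs4. Neither gene passed over all genes. They were 2 of 15 measured regulators, picked out after their values were seen; over the 15 the interaction was above 0 for 8 and below 0 for 7, with 0 called by limma and 2 at an unadjusted p under 0.05, against 3.42% of all genes. Rgs16, another gene of this family, had the opposite signs, with 0.054 on the left, -0.17 on the right and an interaction of 0.22 (SE 0.12, limma unadjusted p = 0.0846).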
